A study of Mus musculus with 17 samples.

Results

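In 5 of the 17 mouse liver libraries a large part of the counts came from the mitochondrial genome, and the values below describe those 5 against the other 12. The mitochondrial share of a library was the sum of its normalized counts over genes whose symbol starts with mt-, divided by its total. The high-share libraries were chosen by this measured share, as those above 10%. The share was 32.6% in replicate 17 and 16.9% in replicate 18 of Gata4LKO GW3965, 15.6% in replicate 10 and 20.4% in replicate 13 of control GW3965, and 19.0% in replicate 1 of control vehicle. The 12 low-share libraries lay between 6.06% and 7.26%. The library just above the threshold had 15.6% and the one just below it 7.26%, so no library lay between these values. These shares chose the libraries and are given as a description, with no test. By title group, high-share libraries were 2 of 5 in Gata4LKO GW3965, 0 of 4 in Gata4LKO vehicle, 2 of 4 in control GW3965 and 1 of 4 in control vehicle.

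**Figure D1:**
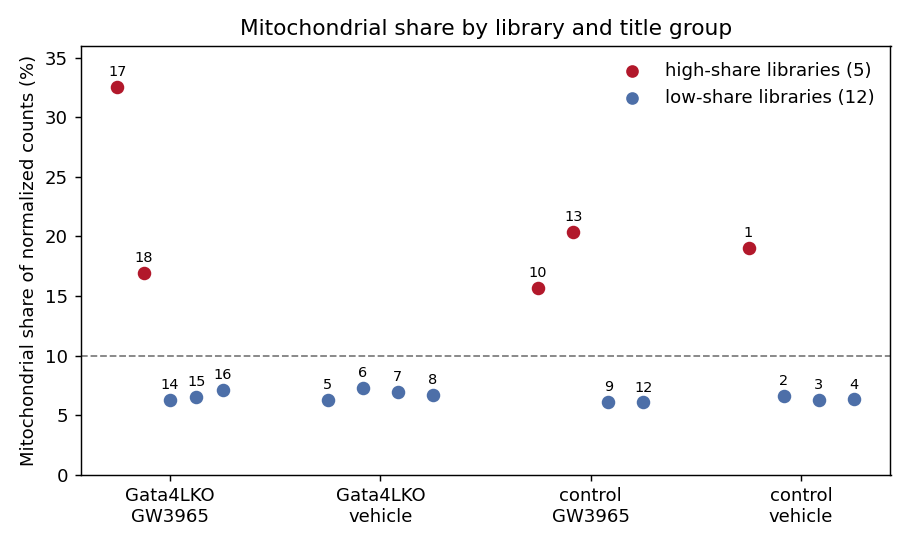
Mitochondrial share of normalized counts (y axis, percent) for each of the 17 libraries by title group (x axis); numbers are replicate numbers, red points are the 5 high-share libraries, blue points the 12 low-share ones, and the dashed line is the threshold of 10%. The high-share libraries sit between 15.6% and 32.6%, in 3 of the 4 groups, and the low-share libraries between 6.06% and 7.26%.

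All livers came from mice with both Gata4 alleles floxed, which were male, of a mixed strain and, per the sample labels, 11 weeks old. Gata4LKO mice had received an adeno-associated virus (AAV8) with Cre recombinase under the hepatocyte promoter Tbg, and control mice an empty AAV8, at 10 weeks, 1 week earlier. GW3965, which activates the liver X receptors (LXR), was gavaged at 40 mg/kg in canola oil 17 h and again 8 h before the livers were taken, the last 4 h without food; vehicle mice received dimethylsulfoxide in canola oil. Gata4LKO GW3965 has 5 libraries, and Gata4LKO vehicle, control GW3965 and control vehicle have 4 each. Groups follow the titles, which the treatment labels contradict in 8 libraries of 2 groups, Gata4LKO vehicle and control GW3965. The labels do not say that each library came from its own mouse, so p-values measure the spread between these libraries.

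The mitochondrial genome encodes subunits of respiratory complexes I, III and IV and of ATP synthase, with the ribosomal and transfer RNAs needed to translate them. Its transcripts are made from long precursors of both strands, cut into single RNAs and polyadenylated, so that kits that select poly(A) RNA capture them. All other subunits, and all of complex II, are encoded in the nucleus, and hepatocytes hold many mitochondria. Nuclear genomes also carry copies of mitochondrial sequence, which can take up or lose reads of the mitochondrial gene.

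Albumin (Alb), the main secreted hepatocyte protein, had a normalized count of 976590 to 1722500 in high-share and 895200 to 1455600 in low-share libraries, so both kinds of library carried the liver's leading mRNA. Gata4 had 128 to 254 normalized counts in high-share and 132 to 260 in low-share libraries. The labels do not name the floxed exons, so this whole-gene count does not check the genotype labels. Reads in nuclear and in mitochondrial genes make up the share that chose the libraries, so their totals are described without a test. Reads in nuclear genes, recovered from the normalized values, were 7926492, 13005637, 16927242, 12250577 and 12607542 in the high-share libraries, in the order of the shares above, against 13856304 to 20664796 in the low-share libraries (median 17036630). Within title groups the mean difference was -4327893 reads. Reads in all genes, mitochondrial ones included, were 11755516 to 20066446 in high-share and 14941620 to 22045786 in low-share libraries, a difference of -2333552.

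Nuclear genes with at least 1 read numbered 16437 to 18276 in high-share and 15500 to 19709 in low-share libraries (difference -811), numbers that depend on the nuclear reads. The low end of the low-share libraries was replicate 6 of Gata4LKO vehicle (15500) and replicate 16 of Gata4LKO GW3965 (15585), while the other low-share libraries had 18298 or more. Without replicate 16 the difference was -1258. With every library thinned to 7926492 nuclear reads, 16387 to 17376 genes were detected in high-share and 15107 to 17607 in low-share libraries (difference -110, two-sided exact permutation test within title groups, p = 0.85, where 240 arrangements allow no p below 0.00417). The 10 most abundant nuclear genes took 19.6% to 23.7% of nuclear counts in high-share and 18.04% to 24.4% in low-share libraries (difference 0.72 percentage points, exact permutation test, p = 0.45).

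The mitochondrial RNAs differed between the kinds of library by no common factor. These folds come from the counts that chose the libraries and are described without a test. Complex I subunits encoded on the heavy strand had the highest folds of high-share over low-share means: 5.38 for mt-Nd2, 4.98 for mt-Nd1, 4.97 for mt-Nd5 and 4.84 for mt-Nd4. Cytochrome b of complex III (mt-Cytb) had a fold of 3.70 and cytochrome c oxidase subunit 1 (mt-Co1) one of 2.95. The ribosomal RNAs had folds of 3.57 for mt-Rnr1 and 2.96 for mt-Rnr2. The only protein gene of the light strand, mt-Nd6, another complex I subunit, had a fold of 1.73.

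In single libraries, mt-Nd2 had 1295281, 417965, 494417, 669005 and 638444 normalized counts in the high-share libraries, in the order replicates 17 and 18 of Gata4LKO GW3965, 10 and 13 of control GW3965 and 1 of control vehicle. The low-share libraries had a lowest value of 109010, a median of 126871 and a highest of 151083. Each high-share library was thus above every low-share one, and replicate 17 stood far above the other 4. The ribosomal RNA mt-Rnr1 had another order: 117297, 140129, 106005, 97227 and 93904 in the same libraries, against 24107 to 54516 in low-share libraries (median 30318). Here replicate 18, not replicate 17, was the highest. For mt-Nd6 the high-share libraries had 24480, 16952, 18795, 19656 and 19781 normalized counts, and the low-share libraries 3232 to 14800 (median 13246). The lowest of these was replicate 6 of Gata4LKO vehicle, one of the low-share libraries with few genes detected.

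As a result the make-up of the mitochondrial counts differed between the kinds of library. The 4 genes mt-Nd1, mt-Nd2, mt-Nd4 and mt-Nd5 took 12.997%, 16.1%, 9.70% and 18.6% of mitochondrial counts in high-share libraries, and 10.9%, 12.6%, 8.61% and 15.7% in low-share libraries. By contrast mt-Co1 took 15.9% in high-share and 21.8% in low-share libraries, and mt-Cytb 19.4% in high-share and 21.4% in low-share libraries. The ribosomal RNAs together stayed small, with mt-Rnr2 at 3.88% in high-share and 4.90% in low-share libraries. Transfer RNAs had means of at most 610 normalized counts in high-share and 236 in low-share libraries (mt-Ti).

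**Figure D2:**
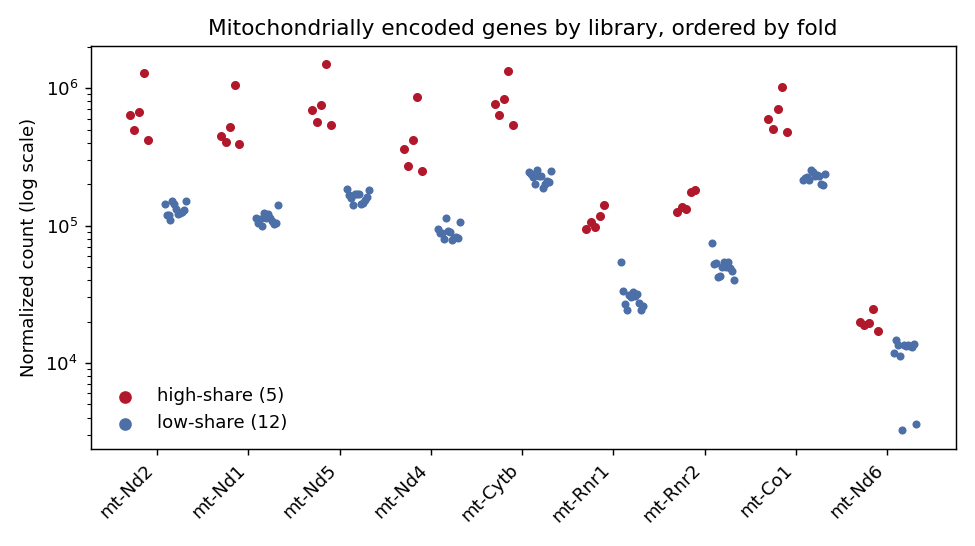
Normalized counts (y axis, log scale) of the 9 mitochondrially encoded protein and ribosomal RNA genes with a mean of at least 10, ordered from left to right by the fold of high-share over low-share means; each point is a library, red for the 5 high-share and blue for the 12 low-share libraries. The folds run from 5.38 for mt-Nd2 to 1.73 for mt-Nd6, and 2 low-share libraries stand apart at mt-Nd6.

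The other 4 mitochondrial protein genes in the table added almost nothing to the share. The genes mt-Co2, mt-Co3, mt-Atp6 and mt-Nd3 had at most 3.79 normalized counts in any library, high-share or low-share. Each has a copy on chromosome 1 in the GENCODE M21 annotation of GRCm38 that matches it over 345 to 783 bases at 99.7% to 100% identity (Gm28661, Gm28437, Gm10925 and Gm28438), and the copies had mean normalized counts of at most 1.38 in high-share and 1.45 in low-share libraries. Parts of 2 counted genes also have near-identical copies on chromosome 1. These are Gm29216 for mt-Co1 (483 bases at 99.8%) and Gm28439 for mt-Nd4 (876 bases at 100%). The effect of these copies on the counts of mt-Co1 and mt-Nd4 was not tested. The stretches below set a gene near 0 beside its identical copy, and counted genes beside chosen copies that differ. Capitals mark where the 2 sequences of a pair differ. For mt-Co1, mt-Nd5 and Rpl14 they are the 60 bases of the aligned coding part with the most differences, in the sense of the gene, and for mt-Atp6 the first 60. Positions are mt-Atp6 at chrM:7927-7986 (+) and Gm10925 at chr1:24614592-24614651 (-); mt-Co1 at chrM:5787-5846 (+) and Gm13340 at chr2:22589129-22589188 (-); mt-Nd5 at chrM:12642-12701 (+) and Gm4076 at chr13:85127260-85127319 (-). Rpl14, a nuclear gene described below, is at chr9:120574104-120574163 (+) and its pseudogene Rpl14-ps1 at chr7:45325328-45325387 (+).
mt-Atp6: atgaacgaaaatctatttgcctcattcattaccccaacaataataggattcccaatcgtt
Gm10925: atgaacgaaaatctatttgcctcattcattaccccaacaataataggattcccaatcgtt
mt-Co1: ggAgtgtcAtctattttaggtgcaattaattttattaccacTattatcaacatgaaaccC
Gm13340: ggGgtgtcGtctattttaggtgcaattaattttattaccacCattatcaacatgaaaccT
mt-Nd5: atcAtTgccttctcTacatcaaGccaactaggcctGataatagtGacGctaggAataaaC
Gm4076: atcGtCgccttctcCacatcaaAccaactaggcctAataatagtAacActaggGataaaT
Rpl14: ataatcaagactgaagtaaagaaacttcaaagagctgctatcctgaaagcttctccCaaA
Rpl14-ps1: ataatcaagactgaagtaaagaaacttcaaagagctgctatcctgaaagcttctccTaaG

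The diverged copies carried counts, and these followed the mitochondrial genes. Gm13340, which matches mt-Co1 over 1545 bases at 97.6% identity, had 139 normalized counts in high-share and 63.0 in low-share libraries on average. Gm4076, a copy of part of mt-Nd5 (95.2% identity), averaged 75.7 in high-share and 18.7 in low-share libraries, and Gm11407, another copy of mt-Nd5 (92.3%), 113 in high-share and 35.1 in low-share libraries. Gm13341, a copy of mt-Co2 (95.9%), averaged 92.5 in high-share and 42.4 in low-share libraries although mt-Co2 itself was at 0. Gm13339, a copy of mt-Nd2, averaged 24.8 in high-share and 6.04 in low-share libraries. Gm11410, a copy of mt-Cytb (92.9%), went the other way at 16.7 in high-share and 21.7 in low-share libraries, and Gm43743, with a 116-base match to mt-Atp6, was at 10.8 in high-share and 12.9 in low-share libraries. Reads of these copies and of the mitochondrial genes cannot be told apart here, so the 15 nuclear genes with a match of at least 100 bases at 90% identity were left out of the comparison that follows.

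Nuclear genes were compared between high-share and low-share libraries with limma on log2(normalized count + 1), with the 4 title groups as a covariate, over 13356 genes. Of these, 1987 (14.9%) were higher and 2026 (15.2%) lower in the high-share libraries at an adjusted p below 0.05, together 30.0% of the genes tested. In 794 genes (5.94%) every high-share library was above every low-share one, and in 594 (4.45%) every one was below. Most differences were small: the median absolute log2 difference of called genes was 0.52, and 200 genes were higher and 182 lower by 1 or more. The median over all tested genes was -0.02. When counts were scaled to the nuclear total instead of the authors' size factors, 1483 genes were higher and 2622 lower, so that higher calls made up 36.1% of calls against 49.5%. With TMM factors 1705 were higher and 2348 lower (42.1%).

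The comparison was also made within each group that holds both kinds of library. The spread in these fits is shared by all 4 groups, so the single high-share library of control vehicle is assumed to vary like the others. Within Gata4LKO GW3965 (2 high-share against 3 low-share libraries) limma called 1074 genes higher (8.04%) and 1252 lower (9.37%). Within control GW3965 (2 against 2) it called 269 higher (2.01%) and 156 lower (1.17%), and within control vehicle (1 against 3) 139 higher (1.04%) and 113 lower (0.846%). These groups share no library. In all 3 groups 148 genes were called, 104 higher and 44 lower, each with 1 sign throughout. Of the 425 genes called within control GW3965, 366 (86.1%) were also called within Gata4LKO GW3965, where they were 15.7% of the calls, and 365 had the same sign. Over all 13356 genes, themselves no independent replicates, the high-low differences of Gata4LKO GW3965 and control GW3965 had a Pearson correlation of 0.43 and a Spearman correlation of 0.50. For control GW3965 and control vehicle these were 0.48 and 0.54. A limma F test of whether the high-low difference varied between the 3 groups called 0 genes (0%), with 606 at an unadjusted p below 0.05. Without replicate 18 of Gata4LKO GW3965, which leaves replicate 17 as its only high-share library, that test called 107 genes, and without replicate 12 of control GW3965 it called 1.

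Nuclear genes for the respiratory chain did not move one way. Their counts stand beside 14.9% higher and 15.2% lower over all genes tested, and a count near those shares is no result about a list. Of 37 tested subunits of complex I, 13 were higher and 9 lower in high-share libraries (median log2 difference 0.02). Of 14 of complexes II and III, 3 were higher and 8 lower (median -0.44), of 12 of complex IV 3 were higher and 1 lower (median 0.00), and of 16 of ATP synthase 2 were higher and 7 lower (median -0.16). The median of complexes II and III was negative within each group, at -0.51 in Gata4LKO GW3965, -0.41 in control GW3965 and -0.30 in control vehicle.

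Among complex I subunits, Ndufb4, an accessory subunit of the membrane arm, had 819, 299, 275, 352 and 399 normalized counts in the high-share libraries, in the order given for mt-Nd2, against 81.4 to 157 in low-share libraries (median 106). The groups did not overlap, and the log2 difference was 1.98 ± 0.20 (SE; limma adjusted p = 3.15e-06). Ndufb9, also of the membrane arm, averaged 2462 ± 649 in high-share and 1153 ± 57.4 in low-share libraries (SD, n = 5 and n = 12; log2 1.09 ± 0.12), Ndufv3 1490 ± 296 in high-share and 768 ± 51.4 in low-share libraries (0.96 ± 0.10), and Ndufs6 1144 ± 158 in high-share and 627 ± 40.6 in low-share libraries (0.83 ± 0.08), each with no overlap. Over the complex I list, 9 of 37 subunits lay above and 5 below in this way, against 5.94% and 4.45% of all genes tested. In complex IV, Cox6c, a small structural subunit, averaged 3999 ± 2031 in high-share and 1348 ± 180 in low-share libraries (1.45 ± 0.20), and Cox5b 957 ± 62.5 in high-share and 475 ± 68.2 in low-share libraries (0.96 ± 0.11), with limma adjusted p = 5.59e-05 and 1.33e-05. Cox7a2l, which binds complexes III and IV together, had a log2 difference of 0.88 ± 0.11, and Cox5a was lower (-0.36 ± 0.09).

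The subunits that were lower lay close together within each kind of library. Sdhc, a membrane anchor of complex II, had 1287, 1630, 1690, 1708 and 1587 normalized counts in the high-share libraries, against 2123 to 2626 in low-share libraries (median 2419). The log2 difference was -0.67 ± 0.06 (limma adjusted p = 1.97e-06). The other anchor Sdhd (-0.62 ± 0.07) and the iron-sulfur subunit Sdhb (-0.56 ± 0.09) were lower too. Uqcrfs1, the Rieske iron-sulfur protein of complex III, averaged 1781 ± 96.6 in high-share and 2884 ± 190 in low-share libraries (-0.71 ± 0.06, limma adjusted p = 9.00e-07), and Uqcr10, a small subunit of the same complex, fell by 0.48 ± 0.06. Atp5e, the epsilon subunit of ATP synthase, had 536, 542, 648, 563 and 558 in the high-share libraries, against 911 to 1415 in low-share libraries (median 1149; -1.06 ± 0.09, limma adjusted p = 8.17e-07). The catalytic beta subunit Atp5b (-0.43 ± 0.07) and the membrane subunit Atp5g3 (-0.62 ± 0.07) were lower, while Atpif1, the inhibitor of ATP synthase, was higher (1.28 ± 0.23). Sdhc, Sdhd, Sdhb, Uqcrfs1, Uqcr10, Atp5e, Atp5b and Atp5g3 were below every low-share library in all 5 high-share libraries. These genes were named for their small adjusted p, which favours such separation. Over the whole lists, 8 of 14 subunits of complexes II and III and 4 of 16 of ATP synthase lay below in this way. Over all genes tested the share was 4.45%.

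Genes that make, import and repair mitochondrial components were also mixed. Their counts, too, stand beside 14.9% higher and 15.2% lower over all genes tested. Of 77 proteins of the mitochondrial ribosome, 15 were higher and 18 lower (median 0.04), with Mrps15 (0.90 ± 0.13) and Mrpl39 (0.58 ± 0.08) among those higher and Mrpl28 (-0.59 ± 0.11) among those lower. Of 32 genes of mitochondrial transcription, RNA processing and replication, 6 were higher and 4 lower (median 0.03). Rexo2, an exonuclease that degrades short RNAs in mitochondria, had 1549, 708, 1042, 1348 and 1309 normalized counts in the high-share libraries, against 525 to 703 in low-share libraries (median 546; 1.07 ± 0.14, limma adjusted p = 3.45e-05). The lowest high-share value and the highest low-share value nearly met. Trmt10c, a subunit of the enzyme that cuts tRNA 5′ ends out of mitochondrial precursors, was higher (0.55 ± 0.11), while Polg (-0.35 ± 0.08) and Polg2 (-0.45 ± 0.12), the subunits of the mitochondrial DNA polymerase, were lower.

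The next 3 lists also stand beside 14.9% higher and 15.2% lower over all genes tested. Among 14 regulators of mitochondrial biogenesis, 4 were higher and 3 lower (median -0.01). Gabpa and Gabpb1, which together form nuclear respiratory factor 2, were higher (0.47 ± 0.07 and 0.76 ± 0.14), and Esrra, the orphan receptor that activates respiratory genes, averaged 224 ± 69.9 in high-share and 403 ± 27.0 in low-share libraries (-0.91 ± 0.17, limma adjusted p = 6.37e-04). The mitochondrial deacetylase Sirt3 was lower (-0.72 ± 0.10). Of 32 genes of import and dynamics, 6 were higher and 14 lower (median -0.12). Vdac3, a channel of the outer membrane, had 152, 145, 150, 150 and 129 in the high-share libraries, against 244 to 304 in low-share libraries (median 269; -0.96 ± 0.08, limma adjusted p = 9.00e-07), one of the tightest separations in these lists. Chchd10, a protein of the intermembrane space, averaged 7040 ± 1221 in high-share and 3315 ± 781 in low-share libraries (1.05 ± 0.14). Of 23 genes of mitochondrial stress and chaperones, 6 were higher and 2 lower (median -0.03): the chaperonin Hspd1 (0.42 ± 0.07), the protease Lonp1 (0.40 ± 0.06) and the mitophagy receptor Bnip3 (0.78 ± 0.12) were higher and the mitophagy kinase Pink1 (-0.60 ± 0.09) was lower.

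Cytosolic ribosomal protein genes held the clearest single separations. Of 73 tested, 11 were higher and 19 lower (median -0.23), beside 14.9% higher and 15.2% lower over all genes tested. The count of higher genes is thus near the share over all genes. Rpl14, of the large subunit (chromosome 9, 120571444 to 120574654, plus strand), had 2534, 1122, 1293, 1396 and 1289 normalized counts in the high-share libraries, against 215 to 343 in low-share libraries (median 286). The lowest high-share library was thus far above the highest low-share one, and the log2 difference was 2.33 ± 0.15 (limma adjusted p = 1.78e-07). The difference was 2.51 ± 0.25 within Gata4LKO GW3965, 2.23 ± 0.27 within control GW3965 and 2.18 ± 0.32 within control vehicle (limma adjusted p = 2.99e-04, 0.0017 and 0.00914), where it rests on 1 high-share library and on the spread of the other groups. Rpl14-ps1, whose sequence is printed above and which matches Rpl14 at 98.9% identity, had 61.7, 29.0, 26.0, 34.5 and 18.9 in the high-share libraries, against 2.45 to 13.99 in low-share libraries (median 8.14; 1.94 ± 0.39). It was picked as the copy of Rpl14 after its values were seen.

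Other ribosomal protein genes were called in both directions. Rps26, of the small subunit, was higher like Rpl14: it averaged 1319 ± 229 in high-share and 494 ± 108 in low-share libraries (1.41 ± 0.15, limma adjusted p = 4.53e-06). Rps4x, the X-linked form of protein S4, had 133, 182, 180, 128 and 148 in the high-share libraries, against 296 to 497 in low-share libraries (median 450; -1.62 ± 0.11, limma adjusted p = 2.59e-07). Rps2 had 260, 416, 470, 432 and 384 in the high-share libraries, against 850 to 1262 in low-share libraries (median 1032; -1.46 ± 0.11). None of these 3 genes overlapped between the kinds of library. Over the 73 genes of the list, 8 lay above and 11 below in this way, against 5.94% and 4.45% of all genes tested. Rps26, Rps4x and Rps2 have pseudogenes in the nuclear genome. Between 16.2% (Rps26) and 43.0% (Rps2) of their 50-base words occur in another annotated gene. Their counts are thus uncertain where the authors' counting could split reads. The same limit holds for genes named from other lists, such as Hspd1 (42.1%), Bnip3 (47.2%), Hspa8 (39.4%), Acat2 (39.1%), Gsta2 (49.8%) and Gstp1 (33.7%).

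**Figure D3:**
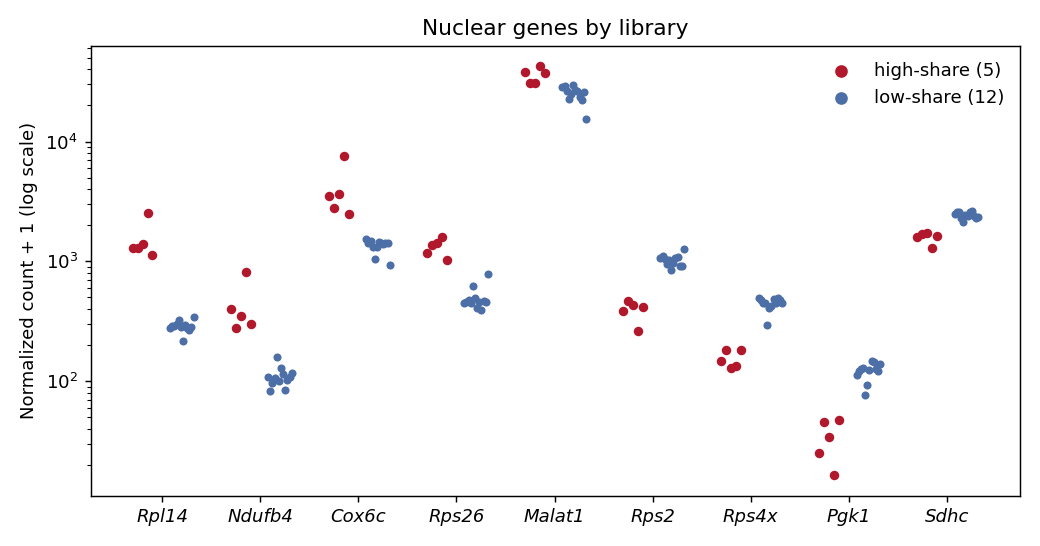
Normalized count + 1 (y axis, log scale) of 9 nuclear genes in each library, red for the 5 high-share libraries on the left of each gene and blue for the 12 low-share libraries on the right. For each of Rpl14, Ndufb4, Cox6c, Rps26 and Malat1 the high-share libraries are all above the low-share ones, and for Rps2, Rps4x, Pgk1 and Sdhc all below.

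Most of the largest positive differences belonged to genes that share many 50-base words, on either strand, with other annotated genes. The 12 called genes with the largest positive log2 difference and the same sign in 3 groups were Mup9, Gm10086, Ppp1ccb, Rps12-ps4, Gm10288, Rpl10-ps3, A430010J10Rik, Gm15501, Rps27rt, Rpl31-ps8, Rpl10a-ps1 and Gm43500. Of these, 11 share 44.3% to 100% of their 50-base words with other genes. Gm10086, Ppp1ccb, Rps12-ps4, Gm10288, Rpl10-ps3, Gm15501, Rps27rt, Rpl31-ps8 and Rpl10a-ps1 were below 10 normalized counts in every low-share library. They passed the filter of at least 10 in at least 4 libraries only through high-share libraries. Their calls and ranks are therefore a description. Ppp1ccb, a processed copy of a protein phosphatase gene, had 65.5, 17.9, 9.0004, 15.9 and 13.9 normalized counts in the high-share libraries, against 0 to 1.05 in low-share libraries (4.14 ± 0.55). With low-share values this close to 0, the size of that difference depends on the added count of 1. Mup9, one of the major urinary protein cluster, ranged from 561 to 14358 in high-share and from 16.9 to 5621 in low-share libraries, so that the groups overlapped widely (4.71 ± 1.33). The exception to the sharing was A430010J10Rik, a long non-coding RNA on chromosome 6 with 1.85% of shared words. It had 237, 52.5, 68.0, 89.0 and 87.2 in the high-share libraries, against 5.97 to 14.2 in low-share libraries (median 8.89; 3.27 ± 0.32, limma adjusted p = 2.58e-06).

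The 12 with the largest negative difference included Tgfbr3l, Tmem200b, Gm55594, Gm42413, Il3ra, Gm26850, Gm45548, Gm20528, Pgk1 and Rdh1. Of the 12, 8 averaged under 30 normalized counts in the low-share libraries. Tgfbr3l, Gm55594, Gm42413, Gm26850, Gm45548 and Rdh1 were below 10 in every high-share library, so they passed the filter only through low-share libraries. Pgk1, the glycolytic phosphoglycerate kinase, had 15.4, 46.9, 45.002, 33.2 and 24.0 in the high-share libraries, against 75.8 to 146 in low-share libraries (median 123; -2.11 ± 0.21, limma adjusted p = 2.98e-06). Eno1, of the same pathway, averaged 342 ± 82.4 in high-share and 674 ± 80.4 in low-share libraries (-1.11 ± 0.12). Both also have processed copies, with 53.9% and 26.0% of shared words. Tgfbr3l averaged 3.27 ± 3.70 in high-share and 28.3 ± 9.29 in low-share libraries (-3.35 ± 0.49), and Il3ra, a cytokine receptor subunit, 6.08 ± 6.15 in high-share and 18.1 ± 6.85 in low-share libraries (-2.26 ± 0.53). Gm42413 lost its call when replicate 1 of control vehicle or replicate 10, 12 or 13 of control GW3965 was left out, and the call of Gm26850 did not hold without that replicate 1. Over all genes, those with no shared word were called in 12.6% (higher) and 16.1% (lower) of cases, and those with over 50% shared words in 17.8% and 15.01%. The median absolute log2 difference was 0.29 in the first class and 0.47 in the second.

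Calls followed the base composition of the transcript. The median GC content, of exonic sequence, was 45.9% for genes higher in high-share libraries, 53.1% for genes lower and 49.1% for all genes tested. In the decile of genes with the lowest GC content, 24.6% were higher and 4.49% lower, and in the decile with the highest GC content 4.94% were higher and 27.3% lower, with a steady change between. The log2 difference had a Spearman correlation of -0.35 with GC content and 0.0950 with exonic length across 13350 genes; these are not independent. In the decile of genes with the longest exonic sequence, 25.6% were higher and 6.07% lower.

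The high-share libraries differed among themselves in this pattern. Deviations were taken from each gene's mean over the 12 low-share libraries, so differences between title groups remain in them. The lowest-GC decile median minus the highest-GC one was 1.15 (log2) in replicate 17 and 0.12 in replicate 18 of Gata4LKO GW3965. It was 0.13 in replicate 10 and 0.50 in replicate 13 of control GW3965, and 0.34 in replicate 1 of control vehicle. In the low-share libraries it ran from -0.30 to 0.12. Replicates 10 and 18, the high-share libraries with the lowest shares, thus lay close to the highest low-share values, although their Rpl14, Rps4x and Sdhc counts were outside the range of all 12 low-share libraries. The lowest low-share values belonged to replicates 16 and 6, those with few genes detected. With the trend in GC content and length removed from every library, 1854 genes were higher and 1965 lower, 1493 and 1502 of them among the calls above, and the deciles of GC content then had 12.96% to 15.4% higher. In a principal component analysis of deviations from the group means, the first component (25.7% of variance) was at 11.5 to 71.1 in the high-share and at -50.0 to 2.65 in the low-share libraries.

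**Figure D4:**
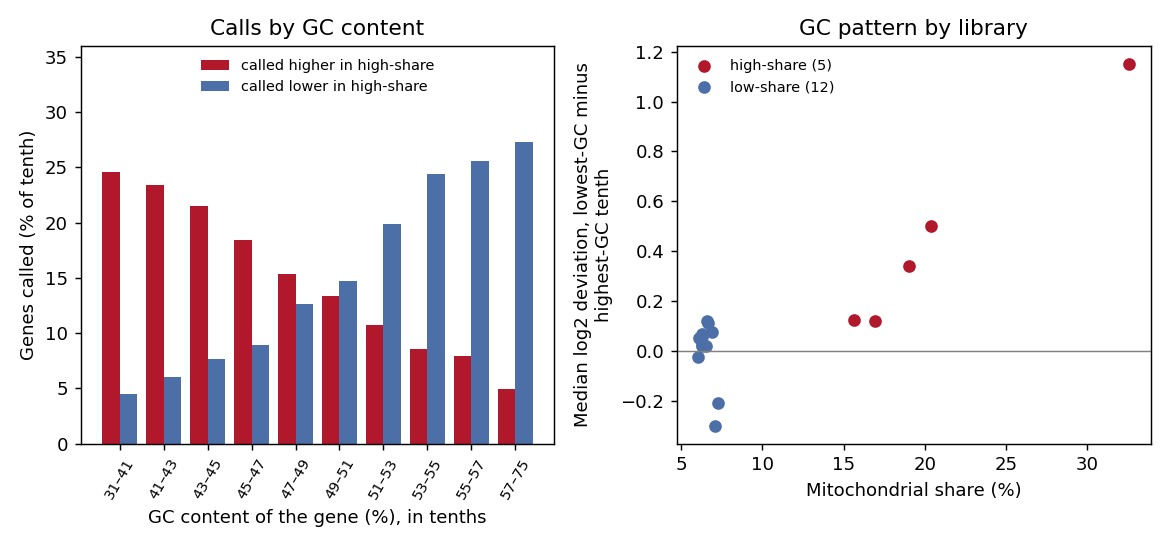
Left, percent of genes called higher (red) or lower (blue) in high-share libraries in each decile of genes by GC content (x axis); the highest share of higher calls, 24.6%, is in the lowest decile and the highest share of lower calls, 27.3%, in the highest. Right, median log2 deviation of the lowest-GC decile minus the highest-GC decile (y axis) against the mitochondrial share of the library (x axis), red for the 5 high-share and blue for the 12 low-share libraries, with replicate 17 of Gata4LKO GW3965 at 1.15.

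Genes with long transcripts and genes of RNA processing were counted against the same shares over all genes, 14.9% higher and 15.2% lower. Of 30 genes with long transcripts for chromatin and cytoskeleton proteins, 14 were higher and 0 lower (median 0.21, against -0.02 over all genes), and in 9 every high-share library was above every low-share one, against the 5.94% of all genes. Kmt2c, a histone methyltransferase, had 1806, 1558, 1500, 1655 and 1736 normalized counts in the high-share libraries, against 1020 to 1364 in low-share libraries (median 1233; 0.52 ± 0.06, limma adjusted p = 1.62e-05). The acetyltransferases Crebbp (0.55 ± 0.07) and Ep300 (0.47 ± 0.06) and the remodeller Chd1 (0.61 ± 0.07) were higher as well, each with no overlap. With the trend in GC content and length removed, 10 of the 30 were higher and 1 lower (median 0.09).

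Of 36 splicing factors and RNA-binding proteins, 11 were higher and 4 lower (median 0.13). Rbm25, a regulator of splice sites, averaged 4855 ± 986 in high-share and 2264 ± 200 in low-share libraries (1.04 ± 0.10, limma adjusted p = 3.22e-06), Pnn had a log2 difference of 0.92 ± 0.14 and Hnrnpu one of 0.53 ± 0.07, while the helicase Ddx17 was lower (-0.42 ± 0.06). With the trend removed this list had 9 higher and 8 lower (median -0.01). Of 12 long RNAs that are kept in the nucleus, 3 were higher and 3 lower (median 0.02). Malat1, the abundant RNA of nuclear speckles, had 42415, 37694, 31092, 30690 and 37790 in the high-share libraries, against 15461 to 29458 in low-share libraries (median 26239; 0.60 ± 0.13, limma adjusted p = 0.00225). Kcnq1ot1, an imprinted antisense RNA, averaged 485 ± 134 in high-share and 220 ± 44.3 in low-share libraries (1.17 ± 0.18); without strand information its counts cannot be told from those of the gene it overlaps. Of 31 proteasome genes, 8 were higher and 5 lower (median 0.03), with Psma4 higher (0.93 ± 0.14) and Psmb4 lower (-0.85 ± 0.07).

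Among the metabolic lists, cholesterol synthesis and uptake had the largest excess of lower calls. The shares over all genes tested were 14.9% higher and 15.2% lower. Of 25 genes tested, 1 was higher and 11 were lower (median -0.34, against -0.02 over all genes), and with the trend in GC content and length removed 1 was higher and 8 lower. Acat2, the cytosolic thiolase at the start of the pathway, had 277, 205, 316, 248 and 251 normalized counts in the high-share libraries, against 333 to 854 in low-share libraries (median 434; -0.95 ± 0.14, limma adjusted p = 1.12e-04). Tm7sf2, a sterol reductase, averaged 657 ± 183 in high-share and 1244 ± 224 in low-share libraries (-0.98 ± 0.12), and Dhcr7, the last enzyme of the pathway, 586 ± 144 in high-share and 988 ± 337 in low-share libraries (-0.75 ± 0.12). The list median was -0.17 within Gata4LKO GW3965, -0.26 within control GW3965 and -0.70 within control vehicle. Of 19 lipogenic genes 1 was higher and 5 lower (median -0.27). Dgat2, which completes triglyceride synthesis, averaged 4191 ± 793 in high-share and 7576 ± 751 in low-share libraries, with no overlap (-0.82 ± 0.10, limma adjusted p = 2.17e-05), and the desaturase Fads2 was higher (0.58 ± 0.10). Acly and Acacb, also called lower, lost their calls without replicate 1 of control vehicle.

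Counts of the following lists stand beside 14.9% higher and 15.2% lower over all genes, and a count near those shares is no result about a list. Of 20 LXR targets, the genes that GW3965 addresses, 2 were higher and 2 lower (median 0.06). Lpl, lipoprotein lipase, was higher (0.66 ± 0.21), a call lost without replicate 9 or 10 of control GW3965 or replicate 17 of Gata4LKO GW3965. Nr1h3, which encodes LXR alpha, was lower (-0.25 ± 0.07), a call lost without replicate 17. Of 33 PPARA targets and fatty acid oxidation genes, 3 were higher and 6 lower (median -0.00). The short-chain dehydrogenase Acads averaged 1016 ± 330 in high-share and 1862 ± 107 in low-share libraries (-0.99 ± 0.16). Of 20 genes of the citric acid cycle, 5 were higher and 6 lower (median -0.06), with Sucla2 higher (0.85 ± 0.12) and pyruvate carboxylase, Pcx, lower (-0.60 ± 0.12). Of 20 genes of glucose and glycogen metabolism, 1 was higher and 5 lower (median -0.16), with Fbp1, of gluconeogenesis, at -0.57 ± 0.12. Of 22 genes of hypoxia and glycolysis, 2 were higher and 6 lower (median -0.13).

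For hepatocyte products and zonal genes, too, the shares over all genes were 14.9% higher and 15.2% lower. Of 38 secreted plasma proteins, 9 were higher and 8 lower (median 0.06), with Apoc1 higher (0.77 ± 0.15) and Apoc3 lower (-0.42 ± 0.09). Of 19 bile acid genes, 2 were higher and 2 lower (median 0.12); Slc27a5, which activates bile acids for conjugation, averaged 8935 ± 1885 in high-share and 13999 ± 1496 in low-share libraries (-0.75 ± 0.10). Of 20 pericentral genes 1 was higher and 2 lower (median 0.08), and of 20 periportal genes 2 were higher and 6 lower (median -0.11). Hsd17b13, a lipid droplet enzyme of the periportal list, averaged 9164 ± 1135 in high-share and 4864 ± 476 in low-share libraries, with no overlap (0.92 ± 0.09, limma adjusted p = 2.98e-06). Of 24 genes of drug metabolism 4 were higher and 3 lower (median 0.18), among them the glutathione transferase Gsta2 (0.88 ± 0.20). Of 20 male-biased genes 1 was higher and 3 lower (median 0.13), with Gstp1 at -0.99 ± 0.18. Of 13 female-biased genes none was called by limma in either direction (median 0.12), and the 2 with the smallest p were Cyp3a16 at 1.19 ± 0.51 and Cux2 at -1.18 ± 0.51 (limma adjusted p = 0.0889 and 0.0922). Of 20 clock genes 2 were higher and 3 lower (median 0.00), with Tef at -0.63 ± 0.08.

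Apart from the heat shock list, the stress and inflammatory lists held called genes in both directions, beside 14.9% higher and 15.2% lower over all genes. The immediate early, unfolded protein, interferon, p53 and cell cycle lists had a lower share of higher calls than 14.9%. Of 16 heat shock genes 5 were higher and 0 lower (median 0.25). Hspa8, the constitutive cytosolic chaperone, had 3416, 3045, 4002, 3580 and 3105 normalized counts in the high-share libraries, against 1351 to 2607 in low-share libraries (median 1863; 0.80 ± 0.12, limma adjusted p = 8.88e-05), and Hsp90ab1 was higher too (0.47 ± 0.09). Of 22 immediate early genes 2 were higher and 1 lower (median 0.09). Jun averaged 450 ± 148 in high-share and 166 ± 63.96 in low-share libraries (1.28 ± 0.27, limma adjusted p = 0.00153), and Myc was higher (1.04 ± 0.27). Of 26 genes of the unfolded protein and integrated stress response 3 were higher and 2 lower (median 0.04), with the chaperone partner Dnajb9 at 0.80 ± 0.11. Of 25 acute phase genes and metallothioneins 6 were higher and 2 lower (median 0.20). Hamp, which encodes the iron hormone hepcidin, averaged 9884 ± 3319 in high-share and 4271 ± 1086 in low-share libraries (1.28 ± 0.22, limma adjusted p = 3.26e-04). Of 26 interferon-response genes 1 was higher and 5 lower (median -0.04), with the GTPase Ifi47 at -1.19 ± 0.24. Of 18 p53 targets 2 were higher and 2 lower (median -0.10), with Bax at -0.87 ± 0.18. Of 20 cell cycle genes 2 were higher and 2 lower (median -0.26), with Tk1 at -0.95 ± 0.18 and Mki67 at 1.24 ± 0.37; the call of Mki67 did not hold when replicate 1 of control vehicle was left out.

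Markers of other cell types were mostly not called, beside 14.9% higher and 15.2% lower over all genes. In bulk tissue, fewer cells of a type and less RNA per cell cannot be told apart. Of 18 markers of sinusoidal endothelium 2 were higher and 2 lower (median 0.01), and their summed normalized count was 9710 to 15942 in high-share and 9518 to 16226 in low-share libraries. Of 17 markers of stellate cells and fibroblasts 1 was higher and 0 lower (median 0.01; sums 4271 to 8095 in high-share and 4041 to 6665 in low-share libraries). Of 15 markers of Kupffer cells and macrophages 1 was higher and 2 lower (median -0.12; sums 5790 to 9636 in high-share and 6103 to 11184 in low-share libraries), with Timd4, a receptor of resident Kupffer cells, at 0.92 ± 0.19 and the iron exporter Slc40a1 at -0.51 ± 0.08. Of 16 markers of lymphocytes and recruited myeloid cells 0 were higher and 1 lower (median 0.05; sums 1524 to 2502 in high-share and 1300 to 4077 in low-share libraries). Of 6 tested cholangiocyte markers 2 were higher and 0 lower (median 0.59). The call of Sox9, 1 of the 2, held in 12 of 32 other settings and was lost in 20. The sums over these 6 markers were 1047 to 1199 in high-share and 721 to 1033 in low-share libraries, ranges that do not overlap. Of 10 erythroid and blood genes 1 was higher and 0 lower (median -0.29; sums 6330 to 8147 in high-share and 5462 to 7367 in low-share libraries). Of 4 adipose markers 1 was higher (median 0.37), and the 1 tested pancreas gene, Cela1, and the 1 tested muscle gene, Mylpf, were not called (-0.25 ± 0.18 and 0.44 ± 0.35, limma adjusted p = 0.333 and 0.368). Cela1 had 143 to 316 normalized counts in high-share and 182 to 385 in low-share libraries. Mylpf had 10.1 to 23.9 in high-share and 3.16 to 18.4 in low-share libraries. Of 12 pancreas markers 2 were in the table, and of 8 muscle markers 5, and those not tested are not in these values. The part of these markers in the nuclear differences was not tested.

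**Figure D5:**
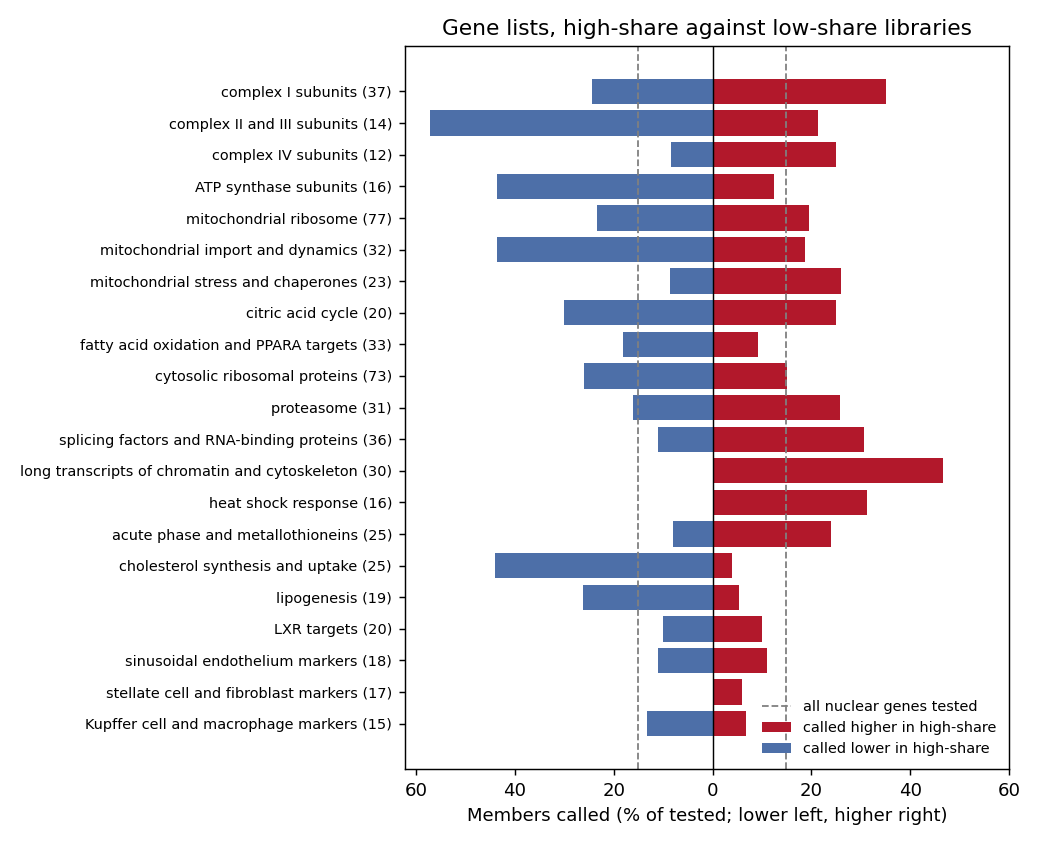
Percent of tested members (in parentheses after each list name) called higher (red, to the right) or lower (blue, to the left) in high-share libraries; the dashed lines are the shares over all nuclear genes tested, 14.9% and 15.2%. Complexes II and III (8 of 14 lower) and cholesterol synthesis (11 of 25 lower) reach farthest to the left beside ATP synthase and mitochondrial import, and the long transcripts (14 of 30 higher) farthest to the right.

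High-share libraries were spread unevenly over the title groups, so the comparisons the study was built for were also fitted with the high-low term. For Gata4LKO GW3965 against control GW3965, limma called 51 genes (0.382%) with the term and 8 (0.0599%) with the 4 title groups alone, and all 8 were among the 51. For control GW3965 against control vehicle it called 145 (1.09%) with the term and 106 (0.794%) without, 104 of them shared. For Gata4LKO GW3965 against Gata4LKO vehicle, the comparison with 2 high-share libraries of 5 on one side and 0 of 4 on the other, the counts were 32 (0.240%) with the term and 41 (0.307%) without, with 26 shared. For Gata4LKO vehicle against control vehicle, 2 genes (0.0150%) were called either way. The median residual SD over genes was 0.262 (log2) with the term and 0.321 without. These counts depended on single libraries. Leaving out 1 library of the groups compared gave 17 (without replicate 12 of control GW3965) to 54 (without replicate 16 or 17 of Gata4LKO GW3965) in the first comparison and 48 (without replicate 12 of control GW3965) to 202 (without replicate 13) in the second. In the other two it gave 9 (without replicate 7 of Gata4LKO vehicle) to 61 (without replicate 15 of Gata4LKO GW3965) and 0 to 2.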

How the data were processed

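Per the labels' protocols, libraries of polyadenylated liver RNA were made with a KAPA mRNA Hyperprep kit. Reads were aligned with STAR 2.6.0c to mm10, and FastQC and DESeq2 were also used, per the submitters' processing notes. The sources used here name no counter, annotation or strand mode. The authors deposited a normalized signal per gene, with each library's reads scaled by a size factor of its own: 100% of values were whole multiples of 1 read within 0.05 read, so reads were recovered by division. Every column was matched to a sample by name. Recovered reads per library ranged from 11755516 to 22045786.

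Genes with at least 10 normalized counts in at least 4 libraries were tested with limma 3.58.1 (R 4.3.3) on log2(normalized count + 1), with Benjamini-Hochberg adjustment over all of them. Differences understate low genes. On simulated data for this comparison (13356 genes), 74 of 100 genes changed 2-fold and 94 of 100 changed 4-fold were recovered, with 9 false calls. edgeR 4.0.16 and DESeq2 1.42.0 on the recovered reads were alternatives. Copies of mitochondrial genes were found with BLAST 2.17.0 on GENCODE M21 transcripts, which also gave GC content, length and sequences. Positions of 24656 of 24676 genes were found.

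The high-share libraries, the gene lists and the tests were chosen with earlier results of these data known. Up to 4 called members of each list with the smallest adjusted p could be named, or 2 where none was called, and the 12 genes with the largest difference in each direction and the same sign in 3 groups. Of the 46 lists, replication-dependent histones had 0 members found under the symbols used. Some genes that this rule picks are not reported here.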

Additional observations from a re-analysis of the deposited data

Results flagged for a closer look

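Values of a library far from the others of its set, by Dixon's criterion in sets of 4 to 10, were looked for in the library measures and the named genes; chance flags about 1 set in 20. The mitochondrial share, the read totals behind it and the mitochondrial genes were not tested, since they chose the libraries. Replicate 1 of control vehicle had fewer nuclear genes detected, 17759 against 18298 to 18397 in the other 3. It also had fewer nuclear reads, 12607542 against 14445645 to 16376807. With all libraries thinned to the same number of nuclear reads it had 16893 genes, within the 16859 to 17109 of the other 3.

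Among the high-share libraries, replicate 17 of Gata4LKO GW3965 was far above the other 4 in genes named for their large differences: Gm10086 (220 normalized counts, against 41.3 to 61.9), Ppp1ccb (65.5, against 9.0004 to 17.9), Rps12-ps4 (216, against 26.5 to 71.7), Gm10288 (52.0, against 11.4 to 21.2), A430010J10Rik (237, against 52.5 to 89.0) and Gm43500 (200.4, against 77.1 to 100.4). Replicate 18 of the same group had 24.6 normalized counts of Tmem200b, against 0 to 1.26 in the other 4, although all low-share libraries had 6.68 to 21.2.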

How the results depend on the processing

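The counts of 1987 higher and 2026 lower genes stayed within 1.5 times under the other pseudocounts and scalings, without the filter, with edgeR (1986 and 1915) and DESeq2 (2165 and 2052), and without replicates 6 and 16 (2093 and 2078). The exceptions were a threshold of 20% for high-share, which leaves replicates 13 and 17 (1074 higher, 1385 lower), and a test limited to the 5007 genes with no shared 50-base word (619 and 796), which has fewer genes. Leaving out 1 library gave 1561 to 2108 higher and 1588 to 2235 lower, and 0 to 107 genes whose difference varied between groups. The difference in reads in all genes then ran from -3088348 to -1411830 and that in nuclear genes detected from -1258 to -571.6; at 10 or more reads per gene the detected genes differed by -620. With the 4 title groups alone, Gata4LKO GW3965 against control GW3965 had 8 calls in place of 51; its range over left-out libraries was 17 to 54, and the ranges of the other comparisons between title groups were 48 to 202, 9 to 61 and 0 to 2. The named genes that changed sign were Srebf1 without the group covariate (0.0669), Cux2 at the 20% threshold (0.44) and Rora with the trend in GC content removed (-0.0110); the cause was not tested. No paired analysis was possible because the groups share no replicate number. The number of high-share libraries, 5 with 1 in control vehicle, limits the precision.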
